A study of Mus musculus with 74 samples.

Results

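Ribosome-bound RNA of inguinal white adipose tissue (WAT) was compared between Zeitgeber time 21 (ZT21) and ZT9, with 3 libraries at each time, which are 6 of the 74 samples of the series. Zeitgeber time is the number of hours since the lights came on. The sources used here do not state the light schedule, so ZT9 was taken as late light and ZT21 as late dark by the usual convention. Both groups came from Adiponectin-Cre:NuTRAP mice, in which the Adiponectin promoter drives Cre in adipocytes and Cre turns on a fluorescent tag on their ribosomes. Tagged ribosomes were pulled down from homogenized tissue with anti-GFP antibodies, and 250 ng of RNA went into each directional library. The labels name no diet, age, sex or treatment for either group, and no control pull-down from mice without Cre was analysed here. They also do not say that the 3 libraries of a time are separate animals. Every p-value therefore measures only the spread between libraries, which may be technical. For WAT RNA, edgeR estimated this spread over all 18 libraries of the 6 times of day, and for the depot difference over all 35 RNA libraries.

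White adipocytes take up glucose and fatty acids and store them as triglyceride. Making fatty acids from glucose needs acetyl-CoA carried out of mitochondria as citrate, and NADPH, which malic enzyme and the pentose phosphate pathway supply. Mice feed mainly in the dark, and the transcription factors SREBP-1c and ChREBP, which respond to insulin and glucose, raise the enzymes of this route after feeding. The circadian clock runs in adipocytes as well: BMAL1 and CLOCK activate the Per, Cry and Rev-erb repressor genes and output genes such as Dbp through E-box sequences.

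The 6 libraries held 2210791 to 5138315 counts, and 12703 genes passed the filter on low counts and were tested. Adipocyte markers were present in all of them, with 147 to 209 counts per 1e6 (CPM) of Adipoq, the hormone gene whose promoter drives the Cre, and 163 to 274 CPM of Plin1, the main lipid droplet coat; both genes are named after their values were seen. The libraries were not alike in make-up. Mitochondrially encoded genes took 17.9%, 25.0% and 2.52% of counts in ZT9 replicates 1 to 3 and 2.24%, 9.43% and 0.685% in ZT21 replicates 1 to 3, and 3 ribosomal RNA loci took 60.7% in ZT9 replicate 3 against 12.9% to 25.4% in the other 5. Both shares overlapped between the times, with mitochondrial means of 15.1% at ZT9 and 4.12% at ZT21. An exact permutation test gave two-sided p = 0.2 for the mitochondrial and p = 0.8 for the ribosomal share. It could not decide whether the times differ, since 3 against 3 allows no p below 0.1.

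At ZT21, 6 of 17 tested genes of fatty acid synthesis, 4 of 8 of the pentose phosphate pathway and NADPH supply and 3 of 18 of cholesterol synthesis were called higher than at ZT9. The lipid droplet coat gene Plin2 and the lipase regulators G0s2 and Angptl8 were higher too. The clock output gene Dbp and the clock repressor gene Per3 were lower, as were 2 of 11 skeletal muscle markers, 2 of 5 Schwann and nerve markers and 2 of 6 markers of the mural cells of vessels. In all, 220 of 12703 genes (1.73%) were called by edgeR at an adjusted p under 0.05, 118 higher (0.929%) and 102 lower (0.803%) at ZT21. At an unadjusted p under 0.05 there were 2557 genes (20.1%). The median log2 difference over all tested genes, ZT21 minus ZT9, was -0.14, and it is the background for the medians of gene lists below.

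The number of calls rested on single libraries. It was 1253 without ZT9 replicate 3, the library with 60.7% of counts in ribosomal RNA loci, and 697 without ZT21 replicate 2. It fell to 11 without ZT9 replicate 1, 20 without ZT9 replicate 2, 26 without ZT21 replicate 1 and 3 without ZT21 replicate 3. Leo1, Mid1ip1 and Synpo2 were called in all 6 of these fits, and 172 of the 220 genes in 2 of them. The called genes of the lists and of the largest differences were called without ZT9 replicate 3 and without ZT21 replicate 2 and lost the call in the other 4 fits, except where something else is said. A fit of only the 6 libraries of ZT9 and ZT21 called 10 genes, 9 of them among the 220. It called 0 of 17 genes of fatty acid synthesis, 0 of 8 of the pentose phosphate list and 0 of 16 of cholesterol synthesis. The medians of these 3 lists were then 1.15, 1.43 and 1.13.

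**Figure D1:**
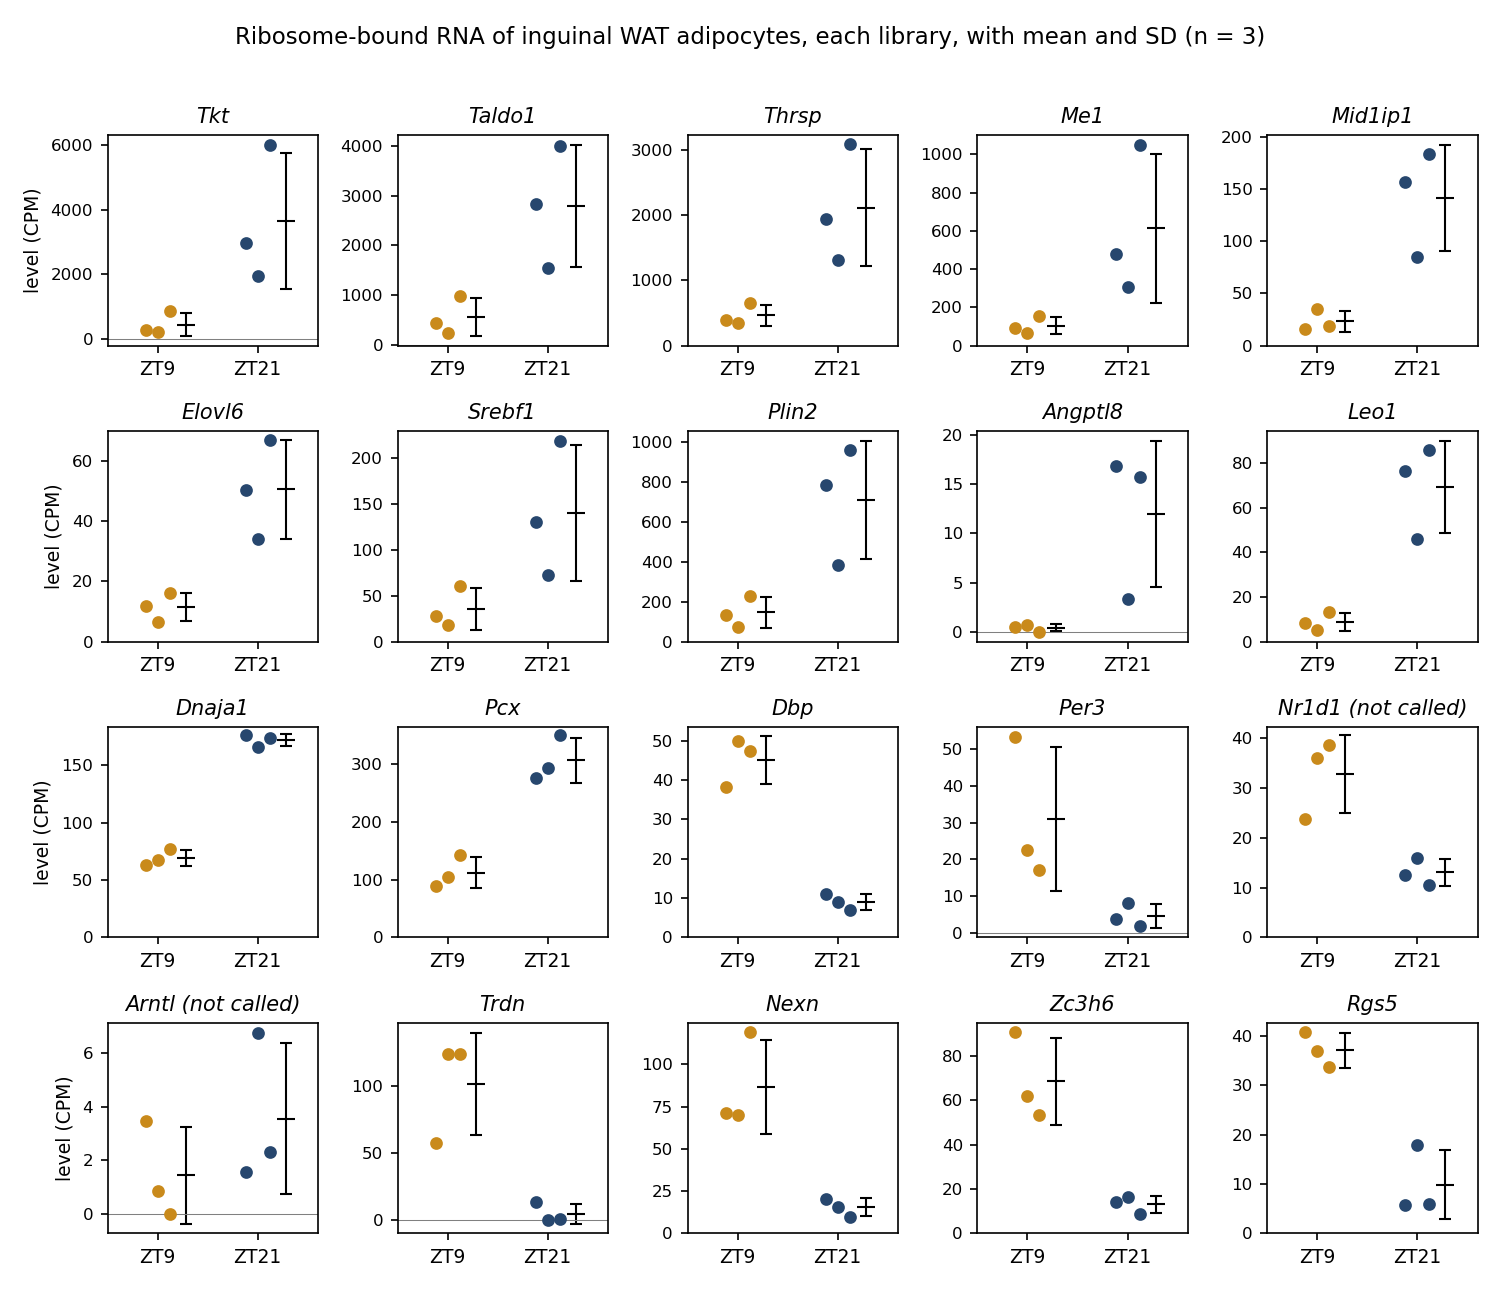
Level of 20 genes in each of the 6 WAT RNA libraries, in CPM on linear axes; points are libraries, replicates 1 to 3 from left to right, and black bars the mean with SD (n = 3). The 12 genes from Tkt to Pcx are higher in all 3 ZT21 libraries than in any ZT9 library, Dbp, Per3, Nr1d1 and the 4 last genes are lower in all 3, and Arntl overlaps between the times.

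Fatty acid synthesis was the list with the most calls among the metabolic lists. Of its 17 tested genes, 6 rose and none fell, and the median log2 difference of the list was 1.20. The count was 7 without ZT9 replicate 3, 6 without ZT21 replicate 2, 2 without ZT21 replicate 1 and 1 without any of the other 3 libraries. Mid1ip1, which helps acetyl-CoA carboxylase polymerize into its active form, had 16.3, 34.8 and 19 CPM at ZT9 and 157, 84.7 and 183 CPM at ZT21. The lowest ZT21 library was thus well above the highest ZT9 library. The log2 difference, given with its SE, was 2.58 ± 0.37, with an edgeR adjusted p of 0.00251. The call held without any 1 library, with edgeR adjusted p up to 0.038.

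Me1, the malic enzyme that makes NADPH in the cytosol, had 93.7, 64.6 and 152 CPM at ZT9 and 481, 306 and 1050 CPM at ZT21. Its log2 difference of 2.57 ± 0.44 (edgeR adjusted p = 0.00659) also held without ZT21 replicate 1. Thrsp, also called Spot 14 and the partner of Mid1ip1, had 389, 343 and 650 CPM against 1940, 1310 and 3080 CPM. Its difference was 2.20 ± 0.44. Elovl6, the elongase that turns palmitate into stearate, went from 11.7, 6.57 and 16.1 CPM to 50.5, 34.2 and 66.9 CPM, a difference of 2.17 ± 0.45. For each of these 4 genes ZT21 replicate 2 was the lowest of the 3 ZT21 libraries and still lay above every ZT9 library.

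The remaining 2 members that rose act before the synthase. Pcx, pyruvate carboxylase, refills mitochondrial oxaloacetate for citrate export, and it had 88.9, 105 and 142 CPM at ZT9 and 275, 293 and 350 CPM at ZT21 (log2 difference 1.45 ± 0.30, edgeR adjusted p = 0.0188). Slc25a1, the carrier that exports citrate, had 45.7, 80.8 and 86.3 CPM against 156, 193 and 161 CPM, a difference of 1.27 ± 0.32. It was the weakest of the 6 and lost its call without ZT21 replicate 2 as well. The spread of both genes among the ZT21 libraries was small, with SDs of 39.3 and 19.7 CPM.

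The central enzymes of the list did not pass the test, and they are given here although their values had been seen. Fasn, fatty acid synthase, had 54.5, 124 and 82.4 CPM at ZT9 and 198, 396 and 274 CPM at ZT21. The libraries of the 2 times did not overlap, and the log2 difference was 1.73 ± 0.51 (edgeR adjusted p = 0.072). Acaca, acetyl-CoA carboxylase, differed by 1.20 ± 0.36 (edgeR adjusted p = 0.0796). Acly, which splits citrate in the cytosol, differed by 1.05 ± 0.70, and Scd1, the desaturase, by 0.26 ± 0.38, with overlapping libraries in both. Over the whole list 15 of 17 differences were above 0. Of its members 9 had higher levels in all 3 ZT21 libraries than in any ZT9 library, against 8.70% of all tested genes, and 1 had lower levels in all 3, against 9.78%.

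The pentose phosphate pathway makes NADPH and turns sugar phosphates into one another. Of 8 tested genes of this list, 4 rose and none fell, with a median log2 difference of 1.47. The count was 6 without ZT9 replicate 3 or without ZT21 replicate 2, 2 without ZT21 replicate 1, and 0 without any of the other 3 libraries. Tkt, transketolase, had 264, 202 and 845 CPM at ZT9 and 2980, 1960 and 6020 CPM at ZT21. It averaged 437 ± 354 and 3660 ± 2110 CPM (SD, n = 3), and no ZT9 library reached the lowest ZT21 library. The log2 difference was 3.07 ± 0.54 (edgeR adjusted p = 0.0072), and it stayed called without ZT21 replicate 1 too.

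Taldo1, transaldolase, works beside transketolase and had 453, 255 and 994 CPM against 2830, 1550 and 4000 CPM. Its difference was 2.30 ± 0.50. In both genes ZT9 replicate 3 was the highest of its group and ZT21 replicate 3 the highest of all. Pgd, the second NADPH-making enzyme of the pathway, rose by 1.91 ± 0.38 on the log2 scale, from 40.2, 38.7 and 52.2 CPM to 129, 91.5 and 270 CPM, and was also called without ZT21 replicate 1. Rpia, ribose-5-phosphate isomerase, rose by 1.40 ± 0.30, from 22.6, 15.7 and 29.3 CPM to 66.3, 55.5 and 54.3 CPM. The list's first enzyme was different. G6pdx, the entry step and itself a source of NADPH, had 12.7, 30.8 and 15.6 CPM at ZT9 and 10.5, 25.0 and 6.95 CPM at ZT21, overlapping ranges with a difference of -0.47 ± 0.55. That gene is named here after its values were seen.

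Of 18 tested genes of cholesterol synthesis, 3 rose and none fell, with a median of 1.12 that was 0.74 without ZT9 replicate 1. The count was 5 without ZT9 replicate 3, 4 without ZT21 replicate 2, and 0 without any of the other 4 libraries. Hmgcs1, which makes HMG-CoA, had 37.4, 26.3 and 42.9 CPM at ZT9 and 107, 72.2 and 107 CPM at ZT21. It rose by 1.43 ± 0.33 on the log2 scale (edgeR adjusted p = 0.0317). Cyp51, which removes a methyl group from lanosterol, differed by 2.17 ± 0.51, with 14.9, 9.93 and 19.5 CPM against 54.7, 32.3 and 110 CPM. Pmvk, phosphomevalonate kinase, differed by 2.01 ± 0.49, with 7.15, 9.93 and 27.8 CPM against 59.4, 34.4 and 79.3 CPM. The libraries of the times did not overlap for any of the 3. Fdft1, squalene synthase, had a value of 1.49 ± 0.39 and an edgeR adjusted p of 0.0508. Its libraries overlapped, since ZT21 replicate 2 had 110 CPM and ZT9 replicate 3 had 119 CPM.

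Among 12 tested regulators of lipogenesis, 1 rose. Srebf1, the gene of SREBP-1, had 27.3, 18.4 and 61.0 CPM at ZT9 and 130, 72.0 and 219 CPM at ZT21, a rise of 2.01 ± 0.48 on the log2 scale (edgeR adjusted p = 0.0367). The groups did not overlap, though ZT9 replicate 3 and ZT21 replicate 2 were close. Nr1h3, the gene of the oxysterol receptor LXR alpha, had 107, 81.3 and 185 CPM against 337, 214 and 401 CPM without passing the test (1.36 ± 0.38, edgeR adjusted p = 0.0615). Its close relative Nr1h2 had a difference of the other sign, -1.29 ± 0.56, with overlapping libraries. Mlxipl, the gene of ChREBP, differed by 0.91 ± 0.52 and Pparg, the master regulator of adipocytes, by 0.47 ± 0.37, and neither passed; both were added to the named genes after their values were seen. The median of the list was 0.59.

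Triglyceride synthesis had 1 called gene of 13 tested and a median of 0.64. Gpam, which puts the first fatty acid on glycerol phosphate, had 45.3, 31.0 and 53.2 CPM at ZT9 and 110, 70.4 and 266 CPM at ZT21, a rise of 1.80 ± 0.43 on the log2 scale (edgeR adjusted p = 0.0354). ZT21 replicate 3 carried much of this size, since the difference was 1.06 without it. Dgat1, which adds the last fatty acid, and Gpat3 had differences of 1.56 ± 0.42 and 1.78 ± 0.52 and did not pass (edgeR adjusted p = 0.0544 and 0.0684).

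Of 15 genes of lipid droplets and lipolysis, 2 rose and none fell, with a median of 0.30. The median was 0.12 without ZT9 replicate 1 and 0.77 without ZT9 replicate 3. The calls were 2 higher and 1 lower without ZT9 replicate 3 or without ZT21 replicate 2, and 0 without any of the other 4 libraries. Plin2, a coat protein of small lipid droplets, had 133, 73.9 and 231 CPM at ZT9 and 788, 383 and 964 CPM at ZT21. It rose by 2.29 ± 0.43 on the log2 scale (edgeR adjusted p = 0.0121). G0s2, an inhibitor of the triglyceride lipase ATGL, had 230, 110 and 333 CPM against 1060, 552 and 770 CPM, a difference of 1.83 ± 0.46. Pnpla2, which encodes ATGL itself, had 322, 483 and 285 CPM at ZT9 and 116, 236 and 98.1 CPM at ZT21. Here the ZT21 libraries were all below the ZT9 libraries, but the difference of -1.27 ± 0.38 did not pass (edgeR adjusted p = 0.0738). Fabp4, the abundant fatty acid carrier of adipocytes, ran from 6120 to 32300 CPM at ZT9 and from 28900 to 66500 CPM at ZT21, overlapping ranges with a difference of 1.52 ± 0.71.

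Angptl8, an insulin-responsive secreted protein that acts on lipoprotein lipase, was the 1 gene of 11 called in the list of fatty acid uptake. It had 0.55, 0.673 and 0 CPM at ZT9 and 16.8, 3.39 and 15.7 CPM at ZT21. The log2 difference of 4.55 ± 0.95 (edgeR adjusted p = 0.0194) rests on few counts at ZT9, and the gene overlaps Dock6 in RefSeq, so reads may be shared. Lpl, lipoprotein lipase, had 1380 to 2260 CPM at ZT9 and 1880 to 4250 CPM at ZT21, with overlap and a difference of 0.71 ± 0.43. The list median was -0.07, and -0.18 to 0 with 1 library left out.

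**Figure D2:**
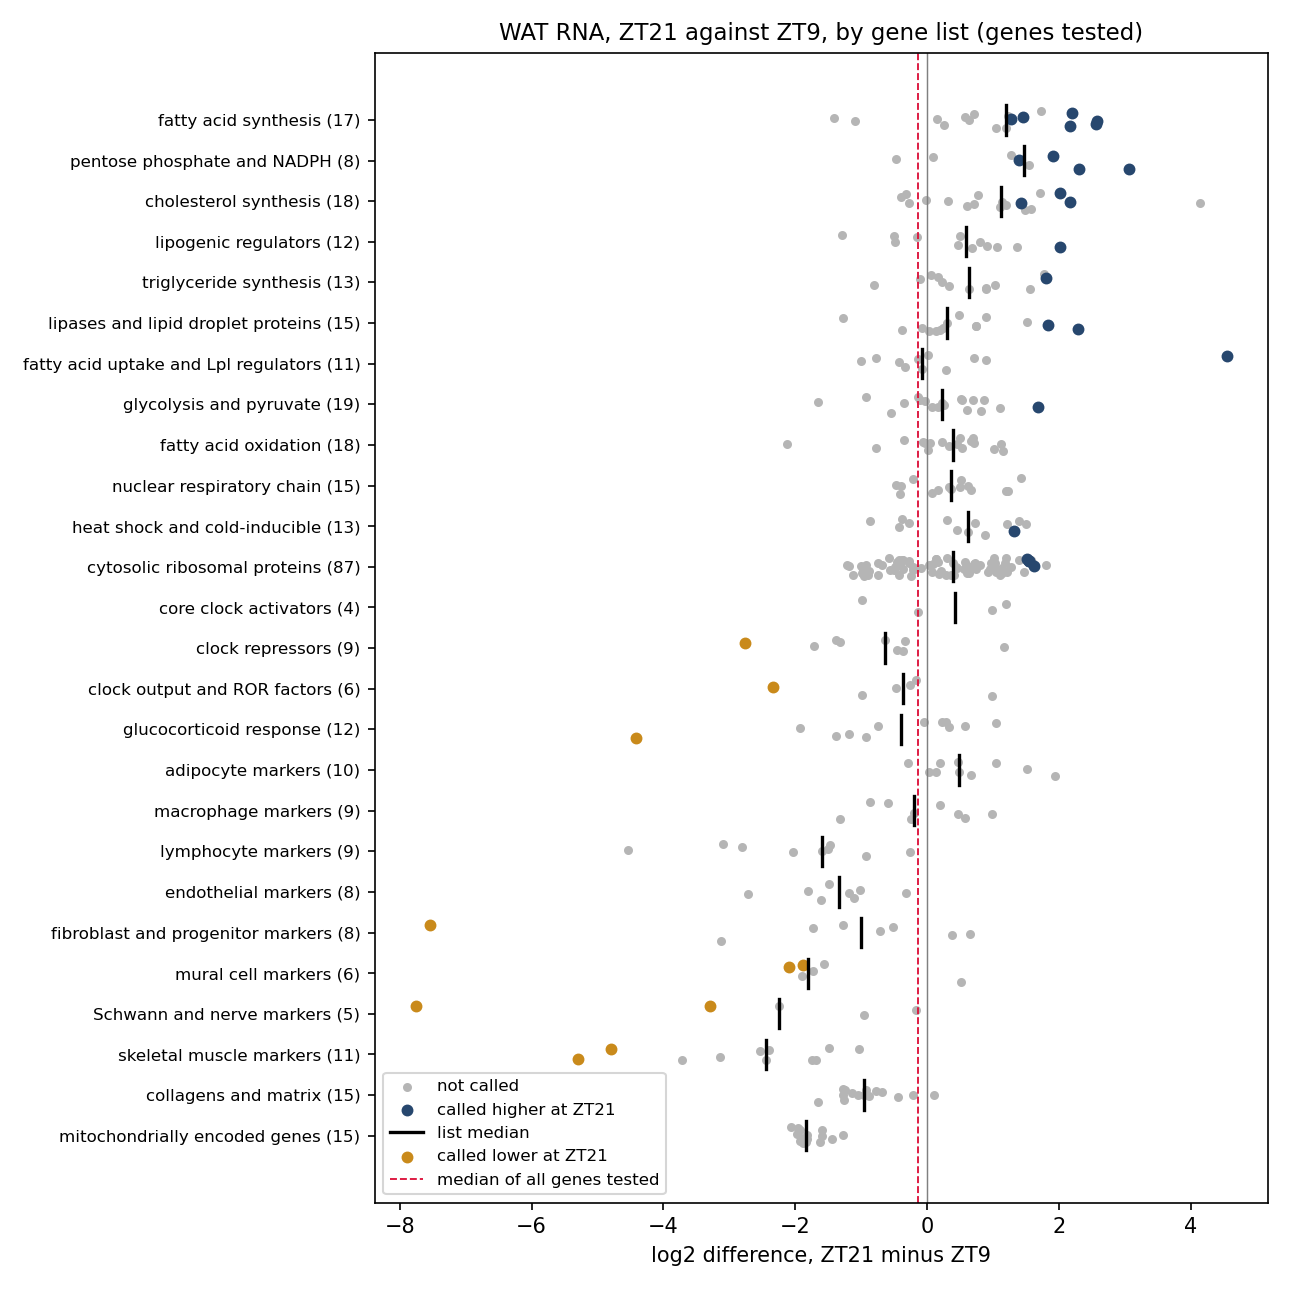
Log2 difference between ZT21 and ZT9 for every tested gene of 26 lists, with the number tested in brackets; black ticks are list medians and the dashed line is the median of all tested genes at -0.14. Called genes of the metabolic lists lie to the right, called clock genes and markers of other cells to the left, and the fitted values at the far left, such as that of Pdgfra, depend on ZT21 libraries at or near 0 counts.

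Other lists of energy metabolism had few or no calls. Ldha, lactate dehydrogenase, was the 1 called gene of 19 in glycolysis and pyruvate use, with 181, 196 and 334 CPM at ZT9 and 762, 465 and 1050 CPM at ZT21 (log2 difference 1.68 ± 0.37, edgeR adjusted p = 0.0261). No gene of 18 in fatty acid oxidation was called by edgeR, while 6 had an unadjusted p under 0.05, DESeq2 called 1 and limma voom 8, of which 6 were higher and 2 lower. Over all 12703 tested genes DESeq2 called 831 (6.54%) and limma voom 2369 (18.6%), which is the background for the counts of these tools. Here and below limma voom was run with quality weights for the libraries. ZT9 replicate 3 and ZT21 replicate 2 had weights of 0.424 and 0.548, and the others of these times 0.735 to 2.05. Those with the low weights are the libraries whose removal raised the number of edgeR calls. Cpt1a, which admits long-chain fatty acids to mitochondria, had 9.35, 7.41 and 8.78 CPM at ZT9 and 0.526, 3.13 and 1.80 CPM at ZT21, and its difference of -2.12 ± 0.60 did not pass (edgeR adjusted p = 0.0644). Of 15 nuclear genes of the respiratory chain none was called by edgeR, 3 had an unadjusted p under 0.05, DESeq2 called 1 and limma voom 5.

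The lists of insulin signalling, adrenergic genes, thermogenesis and adipokines had no edgeR calls. In insulin signalling and glucose uptake, 4 of 17 genes had an unadjusted p under 0.05, DESeq2 called none and limma voom 1, and the median was 0, with -0.23 to 0.22 when 1 library was left out. Among 11 adrenergic genes none had an unadjusted p under 0.05, and neither DESeq2 nor limma voom called any. In the thermogenesis list 3 of 11 had an unadjusted p under 0.05, DESeq2 called none and limma voom 2. Of 10 adipokines 2 had an unadjusted p under 0.05, with 1 call by DESeq2 and 2 by limma voom. Retn, resistin, came closest, with 392, 237 and 913 CPM at ZT9 and 1880, 1340 and 2680 CPM at ZT21 (1.94 ± 0.52, edgeR adjusted p = 0.0529).

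Genes of protein folding and synthesis gave a few calls. Dnaja1, a co-chaperone of HSP70, had 62.9, 67.3 and 77.0 CPM at ZT9 and 176, 166 and 174 CPM at ZT21. The libraries of each time were close together, and the log2 difference was 1.32 ± 0.28 (edgeR adjusted p = 0.0198). It was 1 of 13 genes called in the list of heat shock and cold-inducible genes. Hsp90ab1 and Hspe1, a cytosolic and a mitochondrial chaperone, had higher levels in all 3 ZT21 libraries and did not pass (1.5 ± 0.49 and 1.39 ± 0.43, edgeR adjusted p = 0.0981 and 0.0853).

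Of 87 cytosolic ribosomal protein genes 4 rose and none fell, with a median of 0.40 that was 0.23 without ZT21 replicate 3. These were Rps28, Rps18, Rps26 and Rps27a, all of the small subunit, with log2 differences of 1.63, 1.54, 1.51 and 1.54. Rps28 had 190, 198 and 213 CPM at ZT9 and 662, 370 and 833 CPM at ZT21. Members differed in sign, with 56 of 87 differences above 0. Of the 87, 29 had higher levels in all 3 ZT21 libraries than in any ZT9 library and 0 had lower levels. Those shares were 8.70% and 9.78% over all tested genes. DESeq2 called 22 higher and 0 lower, and limma voom 29 higher and 12 lower. Without ZT9 replicate 3 edgeR called 18 higher and 5 lower, without ZT21 replicate 2 it called 15 and 3, and without any of the other 4 libraries 0. Ribosomal protein genes have many near-identical pseudogenes, and the split of reads among them is uncertain. The pseudogene Rps6-ps4 fell by 2.51 ± 0.61 on the log2 scale, with 37.4, 81.7 and 39.5 CPM against 2.63, 18.8 and 5.41 CPM.

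In the clock, the output gene Dbp and the repressor gene Per3 were called and the activators were not. Dbp, a PAR bZIP factor driven by BMAL1 and CLOCK, had 38.1, 49.8 and 47.3 CPM at ZT9 and 11, 9.13 and 6.95 CPM at ZT21, with tight and well separated groups. It fell by 2.33 ± 0.36 on the log2 scale (edgeR adjusted p = 0.00314), and the call was lost only without ZT21 replicate 3 (adjusted p = 0.0647 by edgeR). It was also called when only these 6 libraries were fitted. Per3 had 53.4, 22.4 and 17.1 CPM against 3.68, 8.08 and 1.80 CPM, a difference of -2.76 ± 0.66 (edgeR adjusted p = 0.0367). Its ZT9 libraries were spread over a wide range and still lay above all ZT21 libraries.

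Most other members of the negative arm, and the output gene Tef, had lower values at ZT21 without passing. Nr1d1, which encodes the repressor REV-ERB alpha, had 23.8, 36.0 and 38.5 CPM at ZT9 and 12.6, 15.9 and 10.6 CPM at ZT21 (-1.32 ± 0.41, edgeR adjusted p = 0.0847). Nr1d2, its paralog, had 23.1, 20.2 and 14.1 CPM against 6.31, 8.86 and 2.57 CPM (-1.71 ± 0.55, edgeR adjusted p = 0.0968). The libraries of both genes did not overlap between the times. Tef, a relative of Dbp, had 166, 101 and 193 CPM against 90.5, 52.7 and 89.3 CPM, also without overlap (-0.98 ± 0.35, edgeR adjusted p = 0.128). Bhlhe41, the repressor DEC2, had a difference of -0.63 ± 0.56, and Bhlhe40, or DEC1, one of -0.46 ± 0.47 with overlapping libraries. Per1 and Per2 overlapped between the times, with differences of -1.38 ± 0.63 and -0.34 ± 0.67, as did Cry2 with -0.36 ± 0.39. Cry1 had values of the other sign, with 2.57, 2.19 and 3.90 CPM at ZT9 and 5.79, 8.86 and 4.38 CPM at ZT21 (1.17 ± 0.84, edgeR adjusted p = 0.461).

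Of the activators, Arntl, Npas2 and Arntl2 were at a few counts. Arntl, which encodes BMAL1, had 3.48, 0.842 and 0 CPM at ZT9 and 1.58, 6.78 and 2.32 CPM at ZT21, a difference of 1.20 ± 1.08 with overlapping libraries. Npas2 and Arntl2 were at 0 to 5.87 CPM, with differences of 0.98 ± 1.73 and -0.99 ± 1.39. Clock had 10.2 to 26.8 CPM at ZT9 and 15.1 to 17.8 CPM at ZT21, a difference of -0.14 ± 0.36. None of the 4 activators was called by edgeR, DESeq2 or limma voom, and none had an unadjusted p under 0.05. Nfil3, which represses the sites that DBP activates, had 3.30, 3.87 and 0.488 CPM at ZT9 and 5.26, 4.95 and 5.92 CPM at ZT21 (0.98 ± 0.88). Hlf, another output gene, and Rora, the gene of a ROR factor, overlapped between the times, with differences of -0.47 ± 0.62 and -0.26 ± 0.38.

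In the list of glucocorticoid response genes 1 of 12 was called. Ddit4, a stress-inducible inhibitor of mTORC1, had 20.7, 14.8 and 3.90 CPM at ZT9 and 0, 1.56 and 0 CPM at ZT21. It fell by 4.42 ± 0.89 on the log2 scale (edgeR adjusted p = 0.0169), and the difference was -8.98 without ZT21 replicate 2, the 1 ZT21 library that held any count. Fkbp5 and Klf9, common glucocorticoid targets, had differences of -1.18 ± 0.45 and -0.75 ± 0.32 and did not pass.

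The 10 largest differences upward, among called genes that averaged at least 20 CPM and did not overlap between the times, include Tkt, Mid1ip1 and Me1 described above. The largest was that of Ptges, a prostaglandin E synthase, with 7.88, 4.88 and 14.1 CPM at ZT9 and 66.8, 31.3 and 165 CPM at ZT21 (3.35 ± 0.55, edgeR adjusted p = 0.00509). It also held without ZT9 replicate 2 and without ZT21 replicate 1. Leo1, a subunit of the PAF1 complex of transcription elongation, had 8.25, 5.22 and 13.2 CPM against 76.3, 46.1 and 85.7 CPM. Its log2 difference of 3.02 ± 0.44 (edgeR adjusted p = 0.00251) was called without any 1 library, with edgeR adjusted p up to 0.0391. Lrtm1, a leucine-rich repeat membrane protein, differed by 2.84 ± 0.50, with 6.97, 4.21 and 14.1 CPM against 53.7, 47.7 and 71.1 CPM. It overlaps Cacna2d3, so reads may be shared, and it was also called without ZT21 replicate 1.

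Dusp10, a phosphatase of the stress kinases JNK and p38, differed by 2.42 ± 0.53, with 13.0, 7.24 and 17.6 CPM against 63.6, 24.2 and 111 CPM. The last 3 are unnamed transcripts. Gm48795 and Gm45716 had differences of 2.57 ± 0.44 and 2.34 ± 0.50, and Gm48795 was also called without ZT9 replicate 2 and without ZT21 replicate 1. Gm19531, which overlaps Gnb5, had a difference of 2.73 ± 0.60, but of 1.81 without ZT21 replicate 3.

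Among the 10 largest differences downward, several genes belong to muscle or nerve. Trdn, triadin of the muscle calcium release complex, had 57.6, 124 and 124 CPM at ZT9 and 13.1, 0 and 0.515 CPM at ZT21 (-4.79 ± 1.08, edgeR adjusted p = 0.0273). Most of its ZT21 counts were in replicate 1, without which the difference was -8.50 and still called. Ttn, titin of the muscle sarcomere, had 63.8, 48.7 and 61.4 CPM against 17.9, 1.04 and 0 CPM. Its difference of -3.43 ± 0.87 was -6.74 and called without ZT21 replicate 1, and the call was lost without ZT21 replicate 2. Nexn, an actin-binding protein of muscle, had 71.0, 69.9 and 119 CPM against 20.5, 15.9 and 10.0 CPM, and its difference of -2.50 ± 0.47 was lost only without ZT21 replicate 3.

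Mbp, a myelin protein, had 220, 46.3 and 19.5 CPM at ZT9 and 4.21, 16.2 and 7.98 CPM at ZT21. The difference of -3.29 ± 0.78 rested on ZT9 replicate 1, without which it was -1.74 and not called. Ccl5, a chemokine of T cells, had 43.8, 57.9 and 23.4 CPM against 3.16, 9.13 and 3.35 CPM (-2.96 ± 0.68), and overlaps Gm32650. Cygb, cytoglobin, and Cnn2, a calponin, are expressed in stromal and contractile cells and differed by -2.59 ± 0.60 and -2.47 ± 0.54. Olfr109, an olfactory receptor gene also found in lymphoid cells, differed by -3.20 ± 0.75. Zc3h6, a zinc finger protein, had 90.8, 61.8 and 53.2 CPM against 14.2, 16.4 and 8.75 CPM. Its difference of -2.39 ± 0.39 (edgeR adjusted p = 0.00509) was lost only without ZT21 replicate 3.

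Some markers of other cells were also lower at ZT21. A pull-down of tagged ribosomes can carry RNA of untagged cells, and in bulk RNA fewer cells of a type and less RNA per cell cannot be told apart. Of 11 tested skeletal muscle markers 2 fell, Myh4 and Trdn, and the list median was -2.45, or -3.99 without ZT21 replicate 1. Myh4, a fast myosin heavy chain, had 28.2, 23.2 and 49.7 CPM at ZT9 and 3.16, 0.261 and 0 CPM at ZT21, and stayed called except without ZT21 replicate 3. The 12 markers summed to 283, 280 and 810 CPM at ZT9 and 216, 25.6 and 17 CPM at ZT21. Without ZT21 replicate 1 edgeR called 4 of these markers lower, without ZT9 replicate 3 it called 3, and without ZT21 replicate 3 none.

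Of 5 Schwann and nerve markers 2 fell, with a median of -2.24, among them Mbp, described above. The markers summed to 454, 96 and 105 CPM against 52.6, 68.8 and 46.3 CPM, so ZT9 replicate 1 stood far above the other 5 libraries. Without that library no marker of this list was called and the median was -0.88, and none was called without ZT21 replicate 1 or 3 either.

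Of 6 mural cell markers 2 fell, with a median of -1.80. Rgs5, a pericyte gene, had 40.7, 37 and 33.6 CPM at ZT9 and 5.79, 18 and 5.92 CPM at ZT21 (-1.88 ± 0.45, edgeR adjusted p = 0.0367), and Acta2, smooth muscle actin, differed by -2.10 ± 0.52. The sums were 77 to 123 CPM at ZT9 and 31 to 58.7 CPM at ZT21, without overlap. Of 8 fibroblast and progenitor markers 1 fell. Pdgfra, the receptor that marks adipocyte progenitors, had 3.48, 10.6 and 0.488 CPM at ZT9 and 0 counts in all 3 ZT21 libraries. Set against a floor of 3 counts over the ZT21 group, its level was at least 15.6-fold lower at ZT21, a bound that was 6.36 without ZT9 replicate 2, the library with most of its counts. The list median of -1 is the same with Pdgfra at the bound of 15.6, and it was -1.70 without ZT21 replicate 2 and -0.65 without ZT9 replicate 1.

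Other marker lists had no edgeR calls. All 9 lymphocyte markers had differences below 0, with a median of -1.59. Of these, 6 had an unadjusted p under 0.05, DESeq2 called 2 and limma voom 5. All 8 endothelial markers had differences below 0 as well, with a median of -1.34, or -2.25 without ZT21 replicate 2. Of these, 2 had an unadjusted p under 0.05, DESeq2 called none and limma voom 2. Of 15 collagen and matrix genes 3 had an unadjusted p under 0.05, DESeq2 called none and limma voom 3, and the median was -0.95, or -0.60 without ZT9 replicate 2. Macrophage markers had a median of -0.19, which ran from -0.53 without ZT21 replicate 2 to 0.27 without ZT9 replicate 2, and 1 of 9 had an unadjusted p under 0.05 with no call by DESeq2 or limma voom.

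Adipocyte markers had a median of 0.48, which was 0.27 without ZT9 replicate 1 and 0.82 without ZT9 replicate 3, with 2 of 10 at an unadjusted p under 0.05, 2 calls by DESeq2 and 3 by limma voom. They summed to 20500, 9130 and 38600 CPM at ZT9 and 69300, 34500 and 78600 CPM at ZT21, mostly from Fabp4. ZT9 replicate 3 and ZT21 replicate 2 overlapped. Of 15 mitochondrially encoded genes none was called by edgeR, 12 had an unadjusted p under 0.05, DESeq2 called 2 and limma voom 15, all of them lower, and the median was -1.84, or -3.04 without ZT21 replicate 2. Mesothelial markers and mammary and skin epithelial markers were low, with 0 of 5 and 1 of 9 passing the filter. They summed to 4.58 and 23.5 CPM in ZT9 replicate 1. In the other libraries of the 2 times the sums were 0 to 0.673 and 0.257 to 1.58 CPM. With ribosomal RNA loci and mitochondrially encoded genes removed before the fit, edgeR called 188 of 12881 genes, 85 higher and 103 lower. In that fit 5 of 17 genes of fatty acid synthesis and 4 of 8 of the pentose phosphate list were called higher. The part of these other cells and of the mitochondrial share in the differences of adipocyte genes was not tested.

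**Figure D3:**
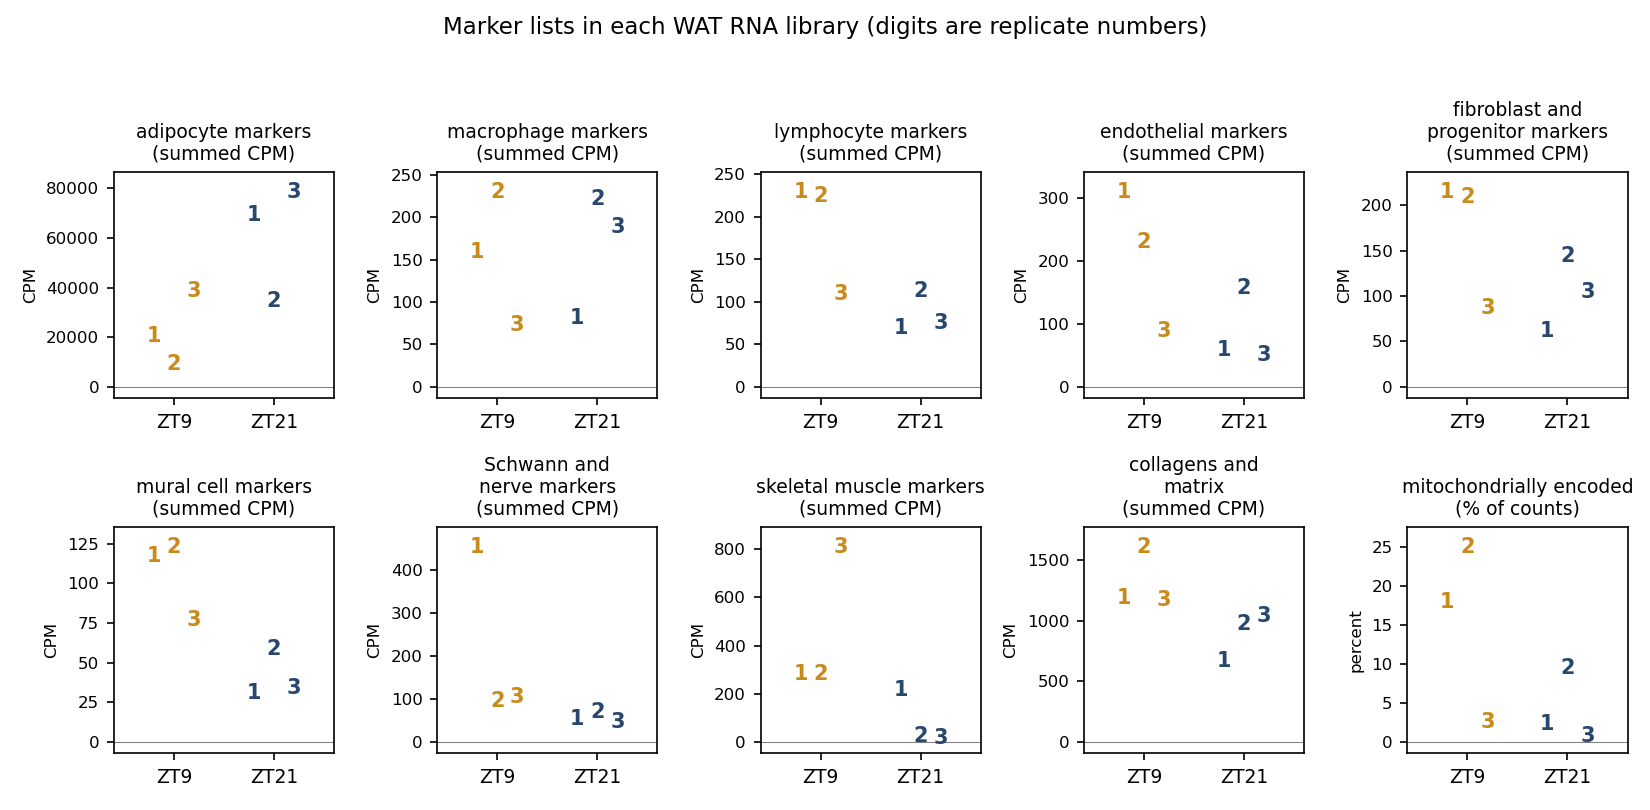
Summed level of 9 marker lists, in CPM, and share of counts in mitochondrially encoded genes, in percent, for each WAT RNA library at ZT9 and ZT21; each digit is the replicate number of a library. Skeletal muscle, Schwann, mural and collagen sums are higher in every ZT9 library than in any ZT21 library, and the other panels overlap, lymphocytes by the 109 CPM of ZT9 replicate 3 and the 113 CPM of ZT21 replicate 2.

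Over the 6 times of day, ZT21 was close to the extreme for most called genes. The mean of the 3 libraries was highest at ZT21 for 100 of the 118 genes called higher and at ZT17 for 17, while the lowest mean lay at ZT13 for 47, ZT5 for 43 and ZT9 for 23. Of the 102 genes called lower, 98 had their lowest mean at ZT21, and their highest lay at ZT9 for 36, ZT13 for 29 and ZT5 for 26. Calling genes on these times favours such extremes, so the shares are a description only. Among all tested genes 16.8% had their highest and 26.6% their lowest mean at ZT21.

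Tkt averaged 382 ± 140 CPM at ZT13, 2050 ± 473 CPM at ZT17 and 3660 ± 2110 CPM at ZT21 (SD, n = 3), and 948 ± 361 CPM at ZT1. Plin2 had a like course, with 122 ± 48.8, 559 ± 91.3 and 712 ± 298 CPM at ZT13, ZT17 and ZT21. G0s2 and Thrsp were highest at ZT17, at 1030 ± 256 and 2450 ± 432 CPM. Both levels were within 1 SD of those at ZT21. Dbp was highest at ZT13 with 53.8 ± 4.53 CPM and lowest at ZT1 with 5.61 ± 1.89 CPM, so the ZT21 level of 9.04 ± 2.05 CPM was not its trough. Trdn had 118 ± 73.8 CPM at ZT5, 102 ± 38.4 CPM at ZT9 and 12.4 ± 6.56 CPM at ZT13, so the high values were those of ZT5 and ZT9. Rgs5 stayed between 37.1 and 43.5 CPM from ZT1 to ZT13 and was 27.5 ± 18.6 CPM at ZT17 before 9.90 ± 7.01 CPM at ZT21.

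**Figure D4:**
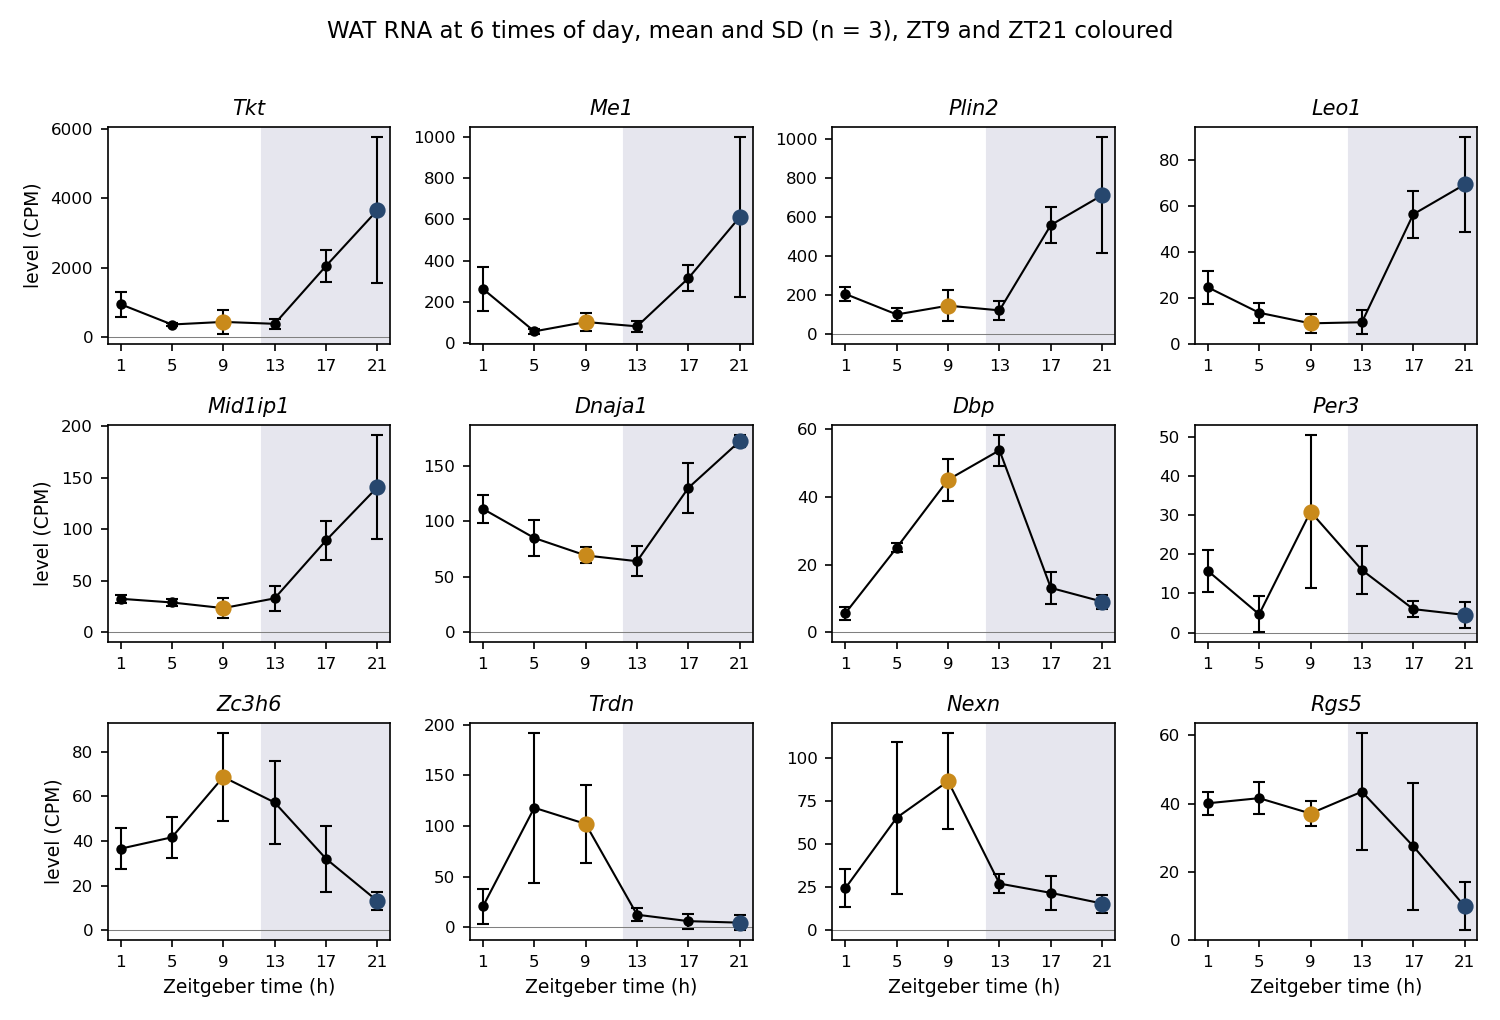
Mean level in CPM with SD (n = 3 libraries) of 12 genes in WAT RNA against Zeitgeber time in hours, with ZT9 and ZT21 as coloured points and the dark phase, by convention, shaded. The 6 genes of the first 2 rows up to Dnaja1 are highest at ZT21 and the lower 6 are at or near their lowest there, with Dbp lowest at ZT1.

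The same pair of times was compared in brown adipose tissue (BAT) of the same mouse strain, with no library in common. In BAT 284 of 12394 tested genes (2.29%) were called between ZT21 and ZT9. The difference between the depots was tested directly, as the WAT difference minus the BAT difference, and 352 of 14969 genes (2.35%) were called, 190 (1.27%) with the larger value in WAT and 162 (1.08%) with the larger value in BAT. This count also rested on single libraries. Leaving out 1 library gave 3 to 50 calls for 8 of the 12 libraries. It gave 2220 and 1848 calls without WAT ZT9 replicate 3 and WAT ZT21 replicate 2, 1229 without BAT ZT21 replicate 2 and 411 without BAT ZT9 replicate 1.

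For a part of the lipid and NADPH genes the depots differed. Tkt differed by 3.07 in WAT and by -0.05 ± 0.32 in BAT, where it was already 3790 ± 1600 CPM at ZT9 (SD, n = 3), and the depot difference was 3.12 ± 0.67 (edgeR adjusted p = 0.0238). Plin2 differed by -0.26 ± 0.26 in BAT, with 888 ± 121 CPM at ZT9, and by 2.58 ± 0.55 between depots. Elovl6 differed by -0.33 ± 0.21 in BAT and by 2.59 ± 0.50 between depots (edgeR adjusted p = 0.0179). Pcx had the same mean of 178 CPM at both times in BAT and a depot difference of 1.5 ± 0.34. Taldo1, Gpam, Cyp51 and Mid1ip1 had called depot differences of 2.83, 1.98, 2.29 and 1.71. When each of the 12 libraries was left out in turn, the depot call was kept in 9 fits for Elovl6, in 5 for Tkt and Plin2, and in 4 for Pcx, Taldo1, Gpam, Cyp51 and Mid1ip1. With DESeq2 size factors those of Cyp51 and Mid1ip1 did not pass either.

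For other genes the depots were not shown to differ. Slc25a1 rose by 1.26 ± 0.30 in BAT (edgeR adjusted p = 0.0393), against 1.27 in WAT, and its depot difference was 0.08 ± 0.44. Dnaja1 rose by 1.14 ± 0.16 in BAT, with a depot difference of 0.24 ± 0.33. Angptl8 rose by 3.00 ± 0.54 in BAT, from 4.58 to 37.6 CPM, with a depot difference of 1.63 ± 0.94. Dbp fell by 3.07 ± 0.29 in BAT, from 78.0 ± 16.8 to 9.26 ± 3.11 CPM, with a depot difference of 0.80 ± 0.44. For Thrsp, Me1 and Srebf1 the depot differences of 1.62, 1.93 and 1.77 did not pass (edgeR adjusted p = 0.076, 0.0579 and 0.096).

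Some clock genes that missed the threshold in WAT passed it in BAT. Arntl rose in BAT from 0.286 ± 0.495 to 9.29 ± 2.74 CPM, 4.56 ± 0.69 on the log2 scale (edgeR adjusted p = 0.00318). Its depot difference was -3.35 ± 1.33 and did not pass (edgeR adjusted p = 0.125). Clock rose by 1.05 ± 0.16 in BAT, with a depot difference of -1.10 ± 0.37 (edgeR adjusted p = 0.0823). Nr1d2, Tef and Per1 fell in BAT by 2.08, 1.37 and 2.07 on the log2 scale, and their depot differences of 0.44, 0.43 and 0.78 were within 1.5 SE of 0. Rpl10a, the ribosomal protein that carries the GFP tag in this allele, was lower in value at ZT21 in WAT, with 141, 193 and 73.6 CPM against 73.1, 82.9 and 59.0 CPM (-0.93 ± 0.38, not called), and higher in BAT, with a depot difference of -1.89 ± 0.41 (edgeR adjusted p = 0.024) that was called in 5 of the 12 fits without 1 library. The sign was not particular to Rpl10a. Of 88 tested cytosolic ribosomal protein genes, 12 had a depot call of this sign and 1 of the other. Over all tested genes the shares were 1.08% and 1.27%. In BAT, 23 of 88 such genes were called higher at ZT21 and none lower, against 159 and 125 of 12394 tested genes. The muscle genes Trdn and Myh4 had depot differences of -4.57 ± 1.49 and -5.49 ± 1.56 that did not pass.

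**Figure D5:**
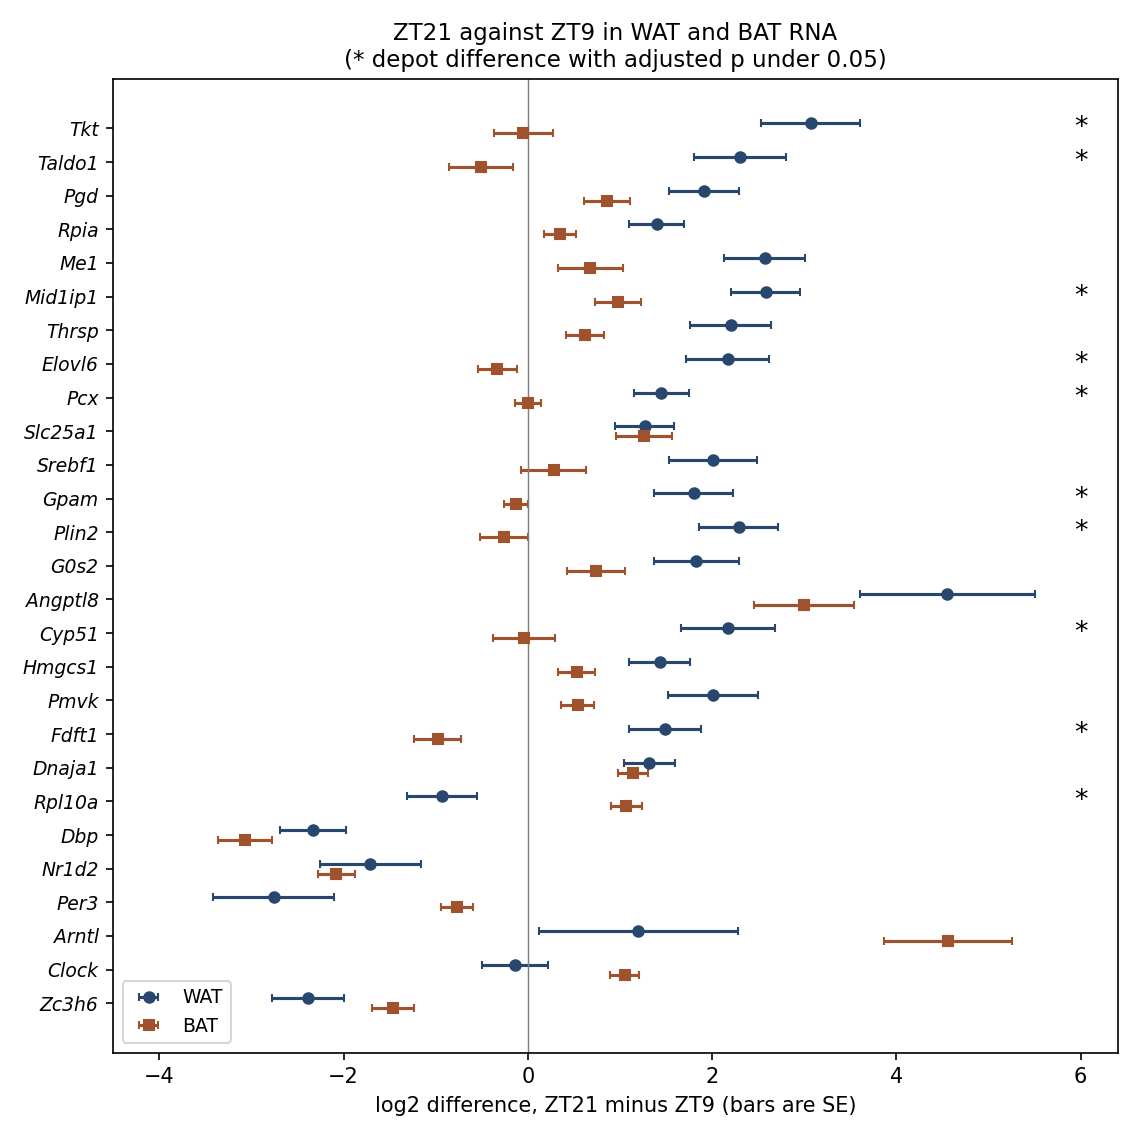
Log2 difference between ZT21 and ZT9, with SE bars, for 27 genes in WAT (circles) and BAT (squares) RNA; a star marks a depot difference with edgeR adjusted p under 0.05. Tkt, Taldo1, Elovl6, Pcx, Gpam, Plin2 and Cyp51 lie near 0 or below it in BAT and at 1.45 to 3.07 in WAT, while Slc25a1 and Dnaja1 nearly coincide.

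Accessibility of adipocyte nuclei was measured at the same times in other libraries, from nuclei sorted by their fluorescent tag. Of 25050 WAT peaks of 150 bp, 2974 (11.9%) were called between ZT21 and ZT9, 1458 higher (5.82%) and 1516 lower (6.05%). A peak within 10 kb of the start site was present for 96 of the 118 genes higher in RNA, and 12 of these (12.5%) had a peak called higher and 4 (4.17%) one called lower. Of 56 such genes lower in RNA, 9 (16.1%) had a peak called lower and 1 (1.79%) one called higher. Among all 8684 tested genes with such a peak, 253 (2.91%) had one called higher and 422 (4.86%) one called lower.

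All 3 called peaks near Angptl8 were higher at ZT21. The one at -158 bp from the start site (chr9:21835277-21835427, mm10) had 36.4, 39.2 and 33.6 CPM of tags at ZT9 and 61.3, 57.8 and 58.1 CPM at ZT21, a log2 difference of 0.67 ± 0.13 (edgeR adjusted p = 0.00132). Peaks at -73 bp from the start of Leo1 and from an inner start of Pcx (chr19:4594171-4594321) rose by 0.48 ± 0.13 and 0.54 ± 0.17, and a peak at -4995 bp from Pgd by 0.61 ± 0.17. A peak at -3525 bp from Thrsp went the other way from its RNA, with 49.1, 44.4 and 47.3 CPM of tags at ZT9 and 30.4, 20.9 and 32.1 CPM at ZT21 (-0.82 ± 0.18).

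Of 19 tested clock genes, all with a peak within 10 kb, 3 had a peak called higher, 6 one called lower and 10 none. Over all tested genes with such a peak the shares were 2.91% higher and 4.86% lower. The 19 genes had 45 peaks, and the number of peaks per gene was not matched. Promoter peaks of Dbp, Nr1d1 and Tef fell by 0.34 ± 0.08, 0.49 ± 0.10 and 0.62 ± 0.09 on the log2 scale, and a peak 1165 bp into Per3 by 0.66 ± 0.14. At Bhlhe41 a promoter peak fell by 0.94 ± 0.20 and a peak at 9464 bp by 1.64 ± 0.22. The libraries overlapped at this promoter peak, with 55.7, 52.1 and 45.7 CPM of tags at ZT9 and 16, 24.5 and 45.8 CPM at ZT21. The promoter peaks of Arntl and Nfil3 rose by 0.37 ± 0.11 and 0.45 ± 0.11, and a peak at -1339 bp from Npas2 by 1.45 ± 0.25. The 3 peaks within 10 kb of Tkt, the 3 of Mid1ip1, the 2 of Plin2, the 2 of Taldo1 and the 5 of Srebf1 were not called.

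BMAL1 peaks came from ChIP of inguinal WAT of C57BL6J mice at ZT4, a time other than those compared here. Of the 118 genes higher at ZT21, 50.0% had a BMAL1 peak within 10 kb (59 genes, 95% Clopper-Pearson interval 40.7% to 59.3%, counting error only). Of the 102 lower genes 36.3% had one (27.0% to 46.4%), and of all tested genes 44.8%, so both intervals hold the share of all genes. Within 1 kb the shares were 45.8%, 25.5% (17.4% to 35.1%) and 41.3%, and there the share of the lower genes was below that of all genes. Over the stronger 50% of peaks within 10 kb, the interval of the lower genes, 14.0% to 30.8%, held the 28.2% of all genes. An ATAC peak within 10 kb was present for 56 of the 102 lower genes, against 8684 of all 12703. Any link between these shares was not tested. The peak scores, which are the authors' own, ranked Dbp and Per3 among the strongest of 10368 peaks, at ranks 6 and 14 with scores of 127.2 and 66.2. Metabolic genes ranked lower. Ldha stood at rank 282 with a score of 17.8, Pcx at 382 with 16.1 and Rpia at 426 with 15.6. Slc25a1 stood at 1282 with 10.3, and Plin2 and Taldo1 at 2034 with 8.73. The best peaks of Tkt, Mid1ip1, Elovl6 and Angptl8 were further down, at ranks 2867, 5518, 5518 and 8670.

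The E-box CACGTG, to which BMAL1 and CLOCK bind, was searched on both strands in RefSeq promoters from 250 bases before to 50 bases after the start. It was present in 11.2% of 89 promoters of genes higher at ZT21, in 10.1% of 69 promoters of lower genes and in 11.8% of 9357 promoters of all tested genes. The ROR element core TAGGTCA was in 4.49%, 0% and 2.29%, the D-box TTATGTAA in 1.12%, 1.45% and 0.609%, and the sterol element TCACNCCAC in 1.12%, 2.90% and 1.35%. The E-box is its own reverse complement, and matches of 2 motifs that share bases were not removed. The following stretches, from RefSeq on GRCm38.p6, are shown because they are the E-boxes before the start of called metabolic genes that also had a BMAL1 peak nearby, with the E-box in capitals.
Ldha, chr7:46845619-46845704, plus strand: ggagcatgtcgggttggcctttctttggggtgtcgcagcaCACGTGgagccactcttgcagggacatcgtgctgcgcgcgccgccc
Ldha, chr7:46845716-46845801, plus strand: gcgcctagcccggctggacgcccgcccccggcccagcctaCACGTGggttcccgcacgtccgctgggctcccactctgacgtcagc
Slc25a1, chr16:17928413-17928469, minus strand: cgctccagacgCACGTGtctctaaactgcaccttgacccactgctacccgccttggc
Pcx, chr19:4510222-4510269, plus strand: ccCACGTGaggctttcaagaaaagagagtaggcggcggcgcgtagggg
The E-boxes of Ldha start 145 and 48 bases before the start site, and both lie inside the BMAL1 peak chr7:46845574-46845786. That of Pcx, 248 bases before the start of its outer promoter, lies inside the peak chr19:4510111-4510323, and that of Slc25a1, 239 bases before the start, lies across the edge of the peak chr16:17928244-17928456, with 4 of its 6 bases inside. A match is a description and not a shown binding site.

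The authors' deposited table of rhythms in WAT, made with JTK_CYCLE on the 18 libraries that include these 6, gives q-values, which are p-values adjusted for the number of genes. Of the genes called higher here that it lists, 10 of 115 had a q under 0.05 (8.70%), 1 of 101 called lower (0.990%), and 17 of 12033 tested genes (0.141%). The libraries are shared, so this is no separate evidence. Tkt, Leo1 and Lrtm1 had q = 0.0331 in the authors' deposited table with phases of 20, 20 and 18 h, and Pcx and Thrsp q = 0.0466 with phases of 20 and 18 h. Nexn was the 1 gene among those lower at ZT21, with q = 0.0331 and a phase of 8 h. Dbp had q = 0.102 and a phase of 12 h there. TPM values in the authors' deposited table, which are scaled for transcript length, were 285 at ZT9 and 2520 at ZT21 for Tkt, 398 and 1630 for Thrsp and 81.8 and 356 for Plin2, averaged over the libraries of a time.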

How the data were processed

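For ribosome-bound RNA the authors deposited expected counts per Ensembl gene, without normalization, for 55487 genes, and symbols were found for 55394. Tools listed for the series, per the submitters' processing notes, are RSEM 1.3.0, STAR 2.7.5, Bowtie2 2.4.1, HOMER, limma and DESeq2 with mm10, with no role given. Strand use in counting was not given in the sources used here; overlapping genes and near-identical copies are uncertain. ATAC tables hold raw tag counts per 150 bp peak, per the file headers. The deposited BMAL1 table gives a HOMER peak score per peak of a pooled set, per the file headers. A further table deposited by the authors holds TPM, JTK_CYCLE q-values (adjusted p-values) and phases.

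Expected counts were rounded (3.02% were not whole). In R 4.3.3, edgeR 4.0.16 scaled the 18 WAT RNA libraries by TMM, filtered with filterByExpr, fitted quasi-likelihood models with 1 group per time and tested ZT21 minus ZT9, with Benjamini-Hochberg adjustment over all genes tested and a call at adjusted p under 0.05. The SE is the log2 difference divided by the square root of F, and levels are TMM-scaled CPM. The depot difference used all 35 RNA libraries and ATAC all 18 WAT libraries. limma 3.58.1, DESeq2 1.42.0 and other settings were tried as alternatives, and the fits were tested on simulated data. Figures used Python 3.11.15 and matplotlib 3.10.9.

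Named genes were the 10 largest called, non-overlapping differences in each direction with a mean of at least 20 CPM, up to 6 called genes per list, the 3 smallest p in lists with under 3 calls, all clock genes, and the 6 list genes with the smallest p for the depot difference. Genes named outside this rule are marked, and some genes the rule names are not reported here. The comparison and the 37 lists were chosen with earlier results of these data known, and no set test was run. Depth was 2210791 to 5138315 counts, so 1 count was 0.257 to 0.526 CPM at ZT21, and levels near that cannot be compared.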

Additional observations from a re-analysis of the deposited data

Results flagged for a closer look

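The change from ZT9 to ZT21 differed between WAT and BAT for 352 of 14969 genes, by an edgeR test of the difference between the depots itself at an adjusted p under 0.05. Among genes of the lists, the 6 with the smallest p were Elovl6, with a WAT minus BAT difference of 2.59 on the log2 scale, Fdft1 with 2.50, Plin2 with 2.58, Tkt with 3.12, Rpl10a with -1.89 and Pcx with 1.5. The other depot calls reported were those of Taldo1 with 2.83, Gpam with 1.98, Cyp51 with 2.29 and Mid1ip1 with 1.71. With each of 12 libraries left out in turn, Elovl6 was called in 9 fits, Fdft1, Plin2, Tkt and Rpl10a in 5, and the other 5 genes in 4. For Fdft1 neither depot alone was called, with 1.49 ± 0.39 in WAT and -0.98 ± 0.25 in BAT (edgeR adjusted p = 0.0508 and 0.0501). Rpl10a had the opposite sign to the other 9, and only its BAT rise of 1.07 ± 0.17 was called. Of 88 tested cytosolic ribosomal protein genes, 12 had a depot call of the sign of Rpl10a, against 1.08% of all tested genes.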

How the results depend on the processing

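Of 220 genes called between ZT21 and ZT9, the number became 855 with no filter on low counts, 831 with DESeq2, 2369 with limma voom with quality weights, 1553 with the libraries of over 50% ribosomal RNA loci left out, and 10 with only the 6 libraries fitted; leaving out 1 library gave 3 to 1253. With ribosomal RNA loci and mitochondrial genes removed the RNA calls were 188, of which 85 were higher and 103 lower. With DESeq2 size factors they were 204, of which 98 were higher and 106 lower. For the depot difference, 352 became 1075 with no filter, 3074 with limma voom, and 3 to 2220 with 1 library left out. There DESeq2 size factors gave 158 with the larger value in WAT and 227 in BAT. For ATAC, 2974 peaks became 1851 with only 6 libraries and 1648 to 3366 with 1 left out. The share of higher genes with a BMAL1 peak was 33.1% over the stronger 50% of peaks, against 28.2% of all tested genes and 21.6% of the lower genes. The cause of these shifts was not tested. With a replicate block the calls were 460 in RNA, 447 between depots and 3103 in ATAC, and all 220 RNA calls were kept. The labels do not say whether the numbers pair samples, within WAT or between the depots, and the main fits left libraries unpaired. Same-numbered WAT RNA libraries of ZT9 and ZT21 had deviations from their group means correlated at -0.07, 0.32 and 0.14. With 3 libraries in a group these values cannot decide whether samples were paired, and pairing between WAT and BAT was not tested. Of single genes in RNA only called ones and clock genes were refitted, and among these signs reversed for uncalled clock genes alone: with limma voom Npas2 was -0.81 and Per2 0.27, and without the libraries heavy in ribosomal RNA Per2 was 0.40 and Rora 0.01. With 1 library left out Arntl2 ran from -1.51 to 1.19, Clock from -0.40 to 0.28, Npas2 from -4.04 to 5.03, Per2 from -0.87 to 0.39 and Rora from -0.43 to 0.01. Of the other values of these genes, over all settings, 664 kept direction and call, 206 lost the call and 11 gained it. For 10 genes with a depot call, 96 values kept the call and 74 lost it, all with 1 library left out except Cyp51 and Mid1ip1 with DESeq2 size factors and Cyp51 with ribosomal RNA loci and mitochondrial genes removed. Depth was lowest in ZT21 replicate 1, with 2210791 counts. Genes of a few CPM at both times, such as Arntl, rest on few counts and are without a usable comparison.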

Other observations

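The genes in these paragraphs fall outside the lists and were chosen after their values were seen. With 1 library left out in turn, Synpo2 was called in all 6 fits, Iglc2 in 5, Sfpq in 4 and each of the others in 1 to 3. Ppp1r3b, which brings protein phosphatase 1 to glycogen, had 5.87, 6.06 and 10.7 CPM at ZT9 and 52.6, 18 and 29.9 CPM at ZT21 (log2 difference 2.17 ± 0.44, edgeR adjusted p = 0.0169). Ppp1r3c, another subunit of this family, had 31.2, 17.7 and 24.9 CPM against 136, 44.3 and 114 CPM (1.99 ± 0.39). The libraries of both genes did not overlap between the times. Nat8l, which makes N-acetylaspartate, rose by 1.70 on the log2 scale, Phgdh, the first enzyme of serine synthesis, by 1.69, and Trib1, a pseudokinase that lowers C/EBP alpha protein, by 1.79.

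Grwd1, Ppan and Bysl, which take part in building ribosomal subunits, rose by 2.25, 1.79 and 1.40, and Fbl, the methylase of ribosomal RNA, by 1.23. Sfpq, an RNA-binding protein of paraspeckles, rose by 1.77, and the splicing factor Srsf3 by 1.16. Neat1, the long noncoding RNA on which paraspeckles form, fell by 1.66. Among other genes that fell, Synpo2, an actin-binding protein of muscle, had 35.4, 22.4 and 25.4 CPM at ZT9 and 2.10, 1.83 and 3.86 CPM at ZT21. Its difference of -3.37 ± 0.50 had an edgeR adjusted p of 0.00251. Cxcl12, a chemokine of stromal cells, fell by 2.25, and Xdh, xanthine dehydrogenase, by 1.71. Iglc2, an immunoglobulin light chain constant region with near-identical copies, had 5.68, 8.59 and 2.93 CPM at ZT9 and no count in the 3 ZT21 libraries.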
